A study of Mus musculus with 20 samples.

Results

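The RPS25 capture is a ribosome profiling experiment in E14 cells, a line of pluripotent mouse embryonic stem cells, that carry 1 allele of Rps25-3xFLAG at the endogenous locus. It comprised 4 of the 20 libraries of the series. In 2 RPS25-Ribo-Seq libraries, ribosomes were pulled out of RNase-treated lysate through the tag with anti-FLAG M2 magnetic beads. In 2 Total Ribo-Seq libraries of the same Rps25-3xFLAG cells, no antibody was used and all ribosomes were pelleted through a sucrose cushion. The labels do not say whether the line is 1 clone, and since 1 allele carries the tag, the cells of both groups also kept an untagged Rps25 allele. Every library of both groups came from cells held for 1 min in 100 µg/ml cycloheximide, which arrests elongating ribosomes. All 8779 transcripts with a value in these 4 libraries were taken as members, with no selection on their values.

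RPS25 is a protein of the small ribosomal subunit. It is best known as a factor that several viral internal ribosome entry sites need in order to recruit the small subunit, whereas budding yeast can grow without it. Ribosomes that differ in their protein makeup have been proposed to favour different mRNAs, and the design asked which transcripts are over- or under-represented among footprints of RPS25-containing ribosomes. A footprint is the piece of mRNA that a ribosome shields from RNase, and a transcript with more ribosomes on it gives more footprints.

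Other libraries of the series served for comparison, each in 2 replicates. They were the RPL10A capture with anti-FLAG beads and its total in 3xFLAG-Rpl10a cells, the RPL22 capture with an anti-HA antibody and its total in Rpl22-3xHA cells, each line tagged on 1 allele, and RNA-seq of heavy polysomes (at least 4 ribosomes a mRNA) and of all lighter fractions from wild-type cells that received control siRNA. For the Rpl22-3xHA line the antibody field reads anti-HA in the total libraries too, and the titles were followed. Values were RPKM, a read density per transcript length and library size, and no counts were given, so the depth is unknown. Ratios are differences between group means of log2(RPKM + 1), written below as log2 ratios, and the added 1 makes the changes of low transcripts look smaller than they are. Transcripts carried UCSC identifiers, and 0 of the 8779 matched the gene tables at hand. The level of Rps25 itself, stem cell markers and gene groups were therefore not analysed here.

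The 2 RPS25 capture libraries differed from each other more than the 2 total libraries did. Their log2 values correlated across transcripts with r = 0.973, against 0.994 for the total libraries. In the captures 371 transcripts (4.23%) lay 2-fold or more apart, against 31 (0.353%) in the totals. The captures stood no closer to each other than to the totals: the 4 pairings of a capture with a total library had r between 0.972 and 0.977, with 273 to 336 transcripts 2-fold or more apart. The sum of all values was 1112655 and 1118107 RPKM in the captures and 1116320 and 1125549 RPKM in the totals, and the 10 most abundant transcripts took 5.36% and 5.49% of it in the captures and 5.71% and 5.87% in the totals. Replicates shared at most 1.53% identical values, so neither group held a copied library. Nothing in the labels ties replicates to separate cultures, so the p-values reflect the spread among these libraries alone, and that spread may be technical. As bulk libraries they also cannot tell fewer cells with a transcript from less of it in each cell.

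Set against total ribosomes, 4 transcripts differed in the RPS25 capture, 3 higher and 1 lower (limma, Benjamini-Hochberg adjusted p below 0.05). These were 0.0456% of the 8779 tested, 0.0342% higher and 0.0114% lower. The transcript with the smallest p, uc007ilt.2, had 154.5 and 158.0 RPKM in the RPS25 captures, against 51.3 and 48.1 RPKM in the totals. All 4 values lay close to their partner, and the groups were far apart (log2 ratio 1.63, SE 0.11, limma adjusted p = 0.0200). uc009iah.3 had 252.3 and 222.6 RPKM in the captures, against 99.4 and 91.8 RPKM in the totals (log2 ratio 1.30, SE 0.11, limma adjusted p = 0.0366). Both rose in the capture and are in the highest quintile of mean level, which starts at 88.6 RPKM. Groups that did not overlap were a condition for being named here.

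The third transcript that rose had a mean level below the median of the table and so fell outside the naming rule. It had 29.6 and 34.3 RPKM in the RPS25 captures, against 3.5 and 4.5 RPKM in the totals (log2 ratio 2.72, SE 0.20, limma adjusted p = 0.0200). Both totals lay below 5.1 RPKM, a level that every listed transcript reached in some library. This transcript thus reached that level in the captures alone, and its call is limited by how transcripts came to be listed. The RPL10A capture libraries held 65.5 and 106.8 RPKM of it, against 17.4 and 14.1 RPKM in their totals.

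The transcript that fell, uc009vfb.1, had 66.3 and 37.4 RPKM in the RPS25 captures, against 600.4 and 517.2 RPKM in the totals. Its log2 ratio was −3.46 (SE 0.25, limma adjusted p = 0.0200). The low side was filled by uc009per.2, the next by p among non-overlapping transcripts of at least median level. It had 864.4 and 861.6 RPKM in the captures, against 1354.8 and 1400.2 RPKM in the totals. It was not called (log2 ratio −0.67, SE 0.07, limma adjusted p = 0.0831).

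**Figure D1:**
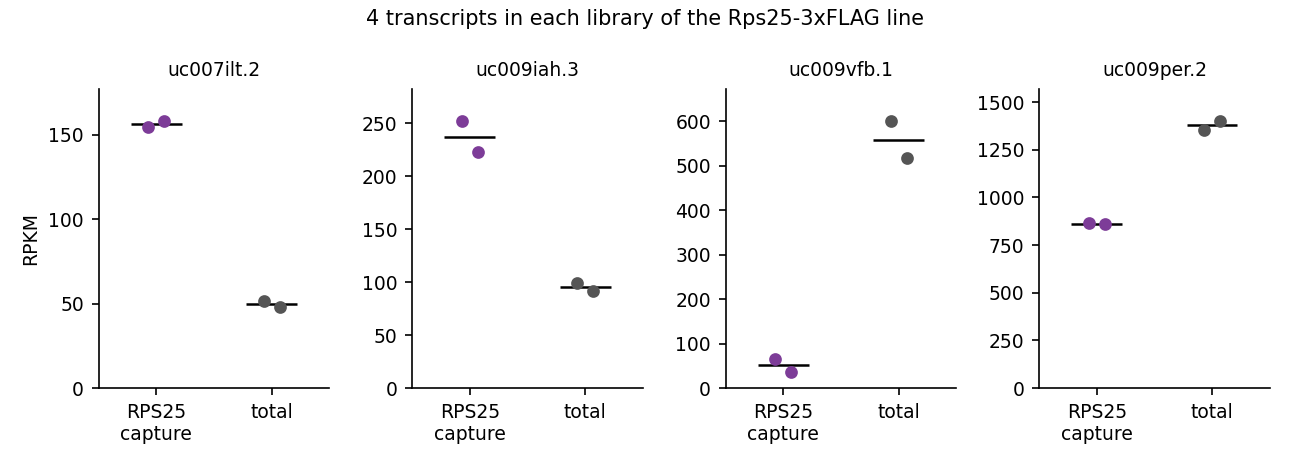
RPKM of the 4 named transcripts (y axis, from 0) in the 2 RPS25 capture libraries and the 2 total libraries of the Rps25-3xFLAG line. Each point is a library and each line the mean of 2. uc007ilt.2 and uc009iah.3 are higher in both captures, uc009vfb.1 and uc009per.2 are lower in both, and uc009per.2 was not called.

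These calls rest on all 4 libraries: without the first or second capture library or the first total library limma called 0, and without the second total library it called 1, uc009vfb.1, while the log2 ratio of uc007ilt.2 stayed between 1.59 and 1.68, that of uc009iah.3 between 1.21 and 1.39 and that of uc009vfb.1 between −3.86 and −3.05. Limma called 0 without the variance trend (970 higher and 694 lower at an unadjusted p below 0.05) and 0 in a test for more than 1.5-fold (55 and 30), and a joint fit of the 3 lines, 12 libraries and 7605 shared transcripts, called 120 higher and 79 lower. An exact permutation test of 2 against 2 libraries cannot go below p = 0.333.

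Many differences lay short of the adjusted threshold. At an unadjusted p below 0.05 in limma, 976 transcripts (11.1%) were higher in the RPS25 capture and 856 (9.75%) were lower. Aligning the library medians gave 760 higher and 1090 lower, while scaling the library totals to be equal gave 1001 higher and 823 lower. The side with more transcripts thus turned with the medians aligned and not with the totals scaled. Both capture libraries lay above both totals for 2452 transcripts (27.9%) and below both for 2275 (25.9%). The log2 ratios had a median of 0.01 and an SD of 0.37 across transcripts, and the middle 90% of them lay between −0.54 and 0.62. A ratio of 2-fold or more was reached by 75 transcripts upward and by 64 downward. Ratios taken from single capture and total libraries of the same number correlated across transcripts with r = 0.369 and had the same sign for 64.4% of transcripts. With the numbers crossed the values were 0.365 and 64.4%.

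Low transcripts leaned toward the RPS25 capture and abundant ones toward the total. In the lowest quintile of mean level (2.90 to 9.05 RPKM) the median log2 ratio was 0.09 and 58.9% of transcripts had a ratio above 0. In the highest quintile (88.6 to 12280 RPKM) the median was −0.05 and 42.7% lay above 0. The medians of the quintiles between them fell in order, at 0.05, 0.03 and −0.02. Of the 10 most abundant transcripts 8 had a ratio below 0, with a range of −0.32 to 0.24, and none was called (5 had an unadjusted limma p below 0.05). Abundant transcripts were also the more often separated on the low side: both captures lay below both totals for 37.8% of the highest quintile and 18.9% of the lowest. The spread between replicates changed with level too. The SD of the log2 difference between replicates was 0.62 in the captures and 0.33 in the totals for the lowest quintile, and 0.26 in the captures and 0.13 in the totals for the highest. Every transcript reached at least 5.1 RPKM in some library, 321 of them in the captures alone and 142 in the totals alone. Aligning library medians shifted the median log2 ratio by −0.05. The parts of the replicate spread, of this floor and of scaling in the lean of low transcripts were not tested.

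**Figure D2:**
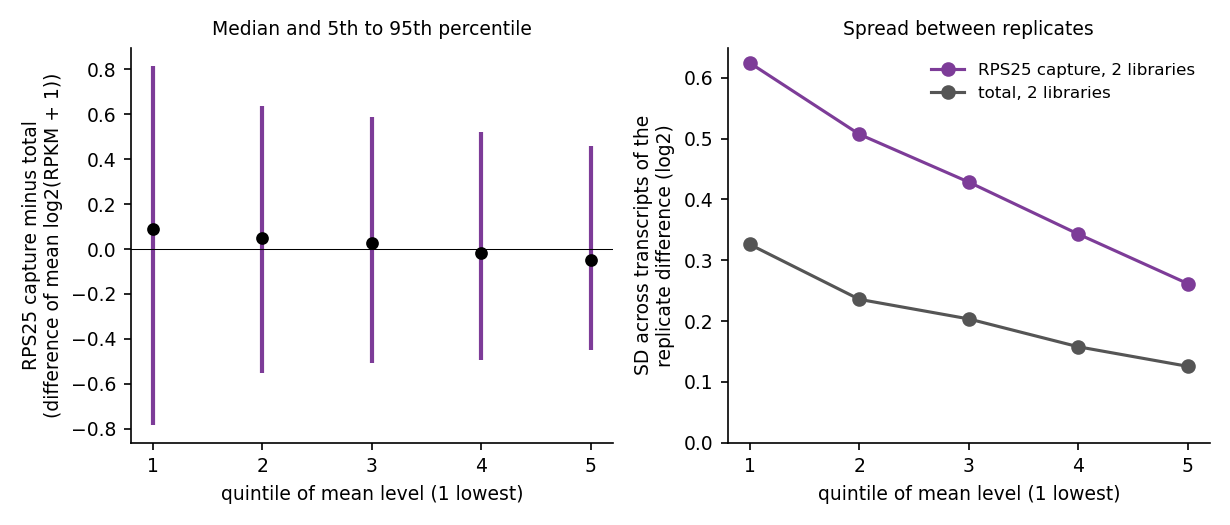
Quintiles of mean RPKM (x axis, lowest to highest). Left, the median (points) and the 5th to 95th percentile (lines) of the RPS25 capture minus total difference of mean log2(RPKM + 1), whose medians fall from the lowest to the highest quintile. Right, the SD across transcripts of the log2 difference between the 2 capture libraries and between the 2 total libraries, where the captures are above the totals in each quintile.

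The deposited table is itself ordered. Its first 109 rows fall steadily in the ratio of mean capture to mean total RPKM, with a log2 value of 3.41 in the top row and 0.76 in the last. The next 56 rows start again at −4.20 and rise to −0.77. The remaining 8614 rows run upward from −2.11 to 2.36. Both opening stretches thus end at a 1.70-fold difference, upward in the first and downward in the second. The sources used here do not give what separates these stretches, so they are described by their place only. Because the order follows the same values as the comparison, nothing is tested on it here. An unadjusted limma p below 0.05 was found for 107 of the 109 transcripts and for all 56 of the second stretch, against 1832 of all 8779, counts that largely restate the ratios by which the rows are ordered. Of the 4 called transcripts, 3 stood in the opening stretch and 1 in the second.

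The 109 transcripts of the opening stretch had a median of 15.4 RPKM in the RPS25 capture and 7.60 RPKM in the total, with log2 ratios from 0.68 to 2.72. Most were low: 22 were at or above the median level of the table, 40 were in the lowest quintile of level and 5 in the highest. The first row had 9.2 and 14.2 RPKM in the captures, against 1.0 and 1.2 RPKM in the totals. The most abundant of them had 3434 and 2664 RPKM in the captures, against 1970 and 1102 RPKM in the totals, so the 2 totals stood wide apart and it was not called (log2 ratio 1.04, SE 0.27, limma adjusted p = 0.132).

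The 56 transcripts of the second stretch had a median of 10.7 RPKM in the capture and 24.6 RPKM in the total, with log2 ratios from −3.46 to −0.73. Of these 21 were in the lowest quintile of level and 4 in the highest. Its most abundant transcript had 1919 and 2180 RPKM in the captures, against 3758 and 3404 RPKM in the totals (log2 ratio −0.81, SE 0.09, limma adjusted p = 0.0831).

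Past the same 1.70-fold difference lay 203 further transcripts on the high side and 124 on the low side, among the remaining rows. Their replicates were farther apart: the median gap between replicates was 0.44 (log2) on either side, against 0.24 in the opening stretch and 0.30 in the second. The last row of the table, for example, had 10.7 and 0.6 RPKM in the captures, against 1.2 and 1.0 RPKM in the totals. Low values also enter these lists. Every transcript reached at least 5.1 RPKM in 1 of the 4 libraries, and 28 of the 109 had both totals below that level, so they reached it in the capture alone, as did 321 transcripts of the whole table. In the same way 17 of the 56 had both captures below it, as did 142 of the table.

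**Figure D3:**
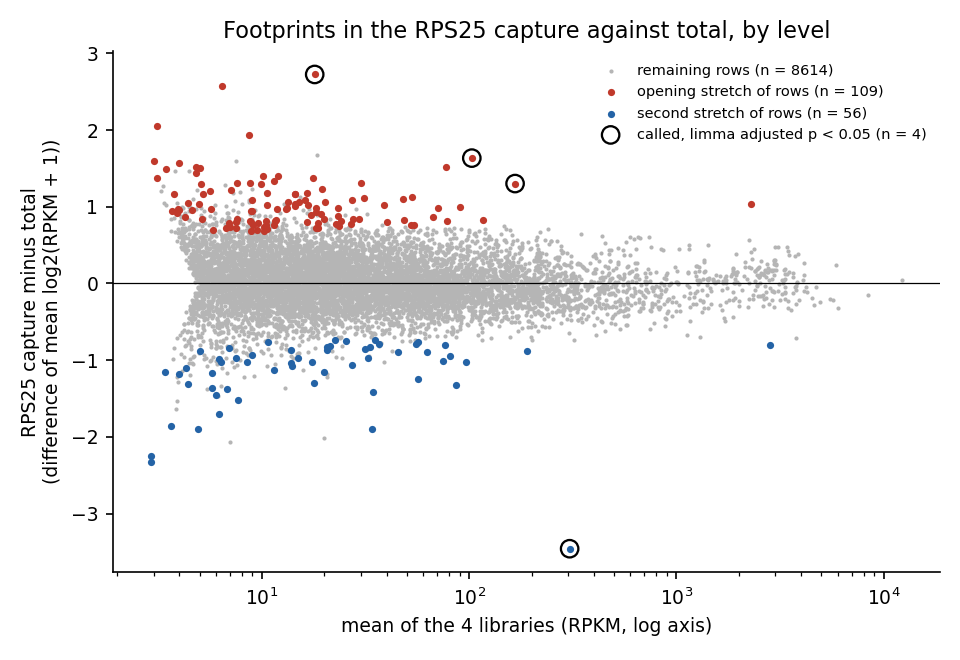
RPS25 capture minus total difference of mean log2(RPKM + 1) (y axis) against the mean RPKM of the 4 libraries (log x axis), 1 point a transcript. The opening 109 rows of the table lie above 0, the next 56 below, and rings mark the 4 called transcripts. The cloud of remaining rows narrows toward high levels.

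The RPL10A capture, made with the same anti-FLAG beads through a protein of the large subunit, has its own total libraries. Of the 109 transcripts of the opening stretch, 82 had values there, and 68 of these had a ratio above 0, against 49.0% of all 8090 transcripts in both tables. Their median log2 ratio was 0.54, against −0.01 over all. Both RPL10A captures lay above both totals for 56 of the 82, against 26.9% over all. Of the 56 transcripts of the second stretch, 43 had values and 41 of these lay below 0, against 50.9% over all, with a median of −0.63. Both RPL10A captures lay below both totals for 35 of the 43, against 29.3% over all. The 689 transcripts of the RPS25 table without RPL10A values had a median of 8.3 RPKM, against 25.8 RPKM for those with values. If the RPL10A table lists only transcripts that reach a floor, those low in totals enter it only through high captures, and the reverse. Such listing could move the opening stretch above 0 and the second below 0. The background of all 8090 was not matched for level, and the part of listing was not tested.

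The RPL10A table is ordered in the same fashion, with an opening stretch of 215 rows and a second of 183. Of the 8090 transcripts in both tables, 146 stood in its opening stretch and 161 in its second. The opening stretches shared 28 transcripts, which were 34.1% of the 82 RPS25 members and 19.2% of the 146 RPL10A members present in both tables. The second stretches shared 12, or 27.9% of 43 RPS25 members and 7.45% of 161 RPL10A members. No transcript stood in the opening stretch of one table and the second stretch of the other. Few would be expected there even for unrelated lists, as the RPL10A stretches held only 146 and 161 of the 8090 transcripts.

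In the RPL22 capture, made with another antibody and a lysis buffer for which no heparin is listed, the medians of both stretches were close to that of all transcripts, while a smaller share of the opening stretch was higher in the capture than over all. Of 71 transcripts of the opening stretch with values, 25 were above 0, against 43.6% of all 8049, and the median log2 ratio was −0.07 against −0.04 over all. Both RPL22 captures lay above both totals for 8 of the 71 (21.4% over all) and below both for 24 (31.9% over all). Of 46 of the second stretch, 27 were below 0, against 56.4% over all, and the median was −0.04. uc009vfb.1 was low there as well, with 22.6 and 152.1 RPKM in the RPL22 captures, against 457.3 and 389.3 RPKM in the totals of that line, and with 77.8 and 86.5 RPKM in the RPL10A captures, against 606.7 and 640.3 RPKM in their totals. Each capture library of the 3 lines thus lay below each total library of its line for this transcript. uc007ilt.2 had 97.9 and 91.6 RPKM in the RPL22 captures, against 99.5 and 87.1 RPKM in the totals, so these groups overlapped. uc009per.2 had 566.1 and 504.3 RPKM in the RPL22 captures, against 486.4 and 516.4 RPKM in the totals, and overlapped as well.

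**Figure D4:**
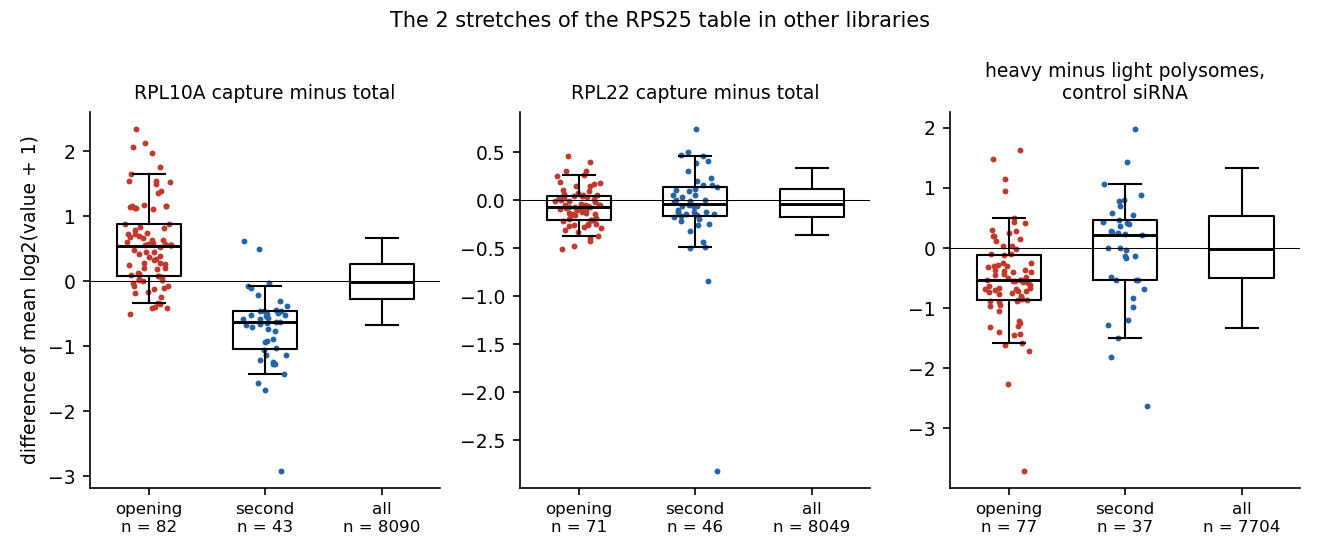
Transcripts of the opening and second stretches of the RPS25 table, and all transcripts in both tables, in the RPL10A capture, the RPL22 capture and the polysome fractions of control siRNA cells. The y axes give differences of mean log2(value + 1), each with its own range; points are transcripts, boxes quartiles with the median, and whiskers the 5th to 95th percentile. The opening stretch has medians of 0.54, −0.07 and −0.54, and the second of −0.63, −0.04 and 0.21.

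The difference between captures was tested as an interaction in the joint fit of the 3 lines. That fit gives each transcript 1 spread, shared by lines of unequal spread, so RPL22 libraries enter the error of the RPL10A contrast. Only the 7605 transcripts with values in all 3 lines were tested. Thus uc007ilt.2, without RPL10A values, and the third transcript that rose, without RPL22 values, were left untested. The RPS25 ratio exceeded the RPL10A ratio for 4 transcripts (0.0526%) and lay below it for 1 (0.0131%; limma interaction, adjusted p below 0.05). The 1 lower transcript had 2498 and 2330 RPKM in the RPS25 captures, against 2287 and 2431 RPKM in their totals, so these groups overlapped, while its RPL10A log2 ratio was 1.30 (difference −1.26, SE 0.13, limma adjusted p = 0.00413). Of the 4 higher ones, 3 had RPS25 log2 ratios between −0.03 and 0.16 and RPL10A ratios between −1.84 and −0.71. The last of the 4 had 10.5 and 10.3 RPKM in the RPS25 captures, against 4.2 and 3.9 RPKM in the totals. In the RPL10A captures it had 7.7 and 6.7 RPKM, against 13.4 and 11.2 RPKM in their totals. Its totals thus lay farther apart between these lines than its captures did. Its RPS25 ratio was 1.18 and its RPL10A ratio −0.70 (difference 1.87, SE 0.24, limma adjusted p = 0.0199). Both its Rps25 totals lay below 5.1 RPKM, which every transcript of the RPS25 table reached in some library. In the Rps25-3xFLAG line it reached that level in the captures alone. With the replicate number as a block limma called 0 (472 higher and 336 lower at an unadjusted p below 0.05). Aligning library medians left 1 higher and 1 lower, and leaving out single libraries gave 0 to 21 higher, with the most without the first RPS25 capture, and 0 to 11 lower.

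Against RPL22, the RPS25 ratio was higher for 2 transcripts (0.0263%) and lower for 0 (539 were lower at an unadjusted limma p below 0.05). One was uc009iah.3, with 177.0 and 161.9 RPKM in the RPL22 captures, against 177.1 and 162.3 RPKM in their totals (difference in log2 ratio 1.30, SE 0.18, limma adjusted p = 0.0371). The other had 26.6 and 28.8 RPKM in the RPS25 captures, against 10.9 and 11.5 RPKM in the totals, and an RPL22 log2 ratio of −0.48 (difference 1.71, SE 0.23, limma adjusted p = 0.0371). With the replicate number as a block limma called 0 (696 higher and 528 lower at an unadjusted p below 0.05). Scaling library totals to be equal gave 76 higher and 12 lower, and leaving out single libraries gave 0 to 85 higher and 0 to 71 lower, both with the most without the second RPS25 capture. Antibody, buffer, mapping tools and line all change between these captures, and their parts cannot be told apart.

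Polysome fractions gave a readout from other cells and another assay. In cells given the control siRNA, 77 transcripts of the opening stretch had RNA-seq values, and 61 of these were higher in the light than in the heavy fractions, against 51.1% of all 7704 transcripts in both tables. Their median heavy minus light difference was −0.54 (log2), against −0.02 over all. Both heavy libraries lay below both light ones for 51 of the 77, against 40.7% over all. uc009iah.3 was among them, with deposited values of 79.4 and 61.3 in the heavy fractions, against 102.1 and 100.3 in the light ones. The background of all 7704 was not matched for level, and most of the opening stretch was low. Transcripts below the median level leaned to the light fractions in each of 10 equal parts by RPS25 ratio, with medians of −0.33 to −0.09. The part of level in the lean of the opening stretch was not tested. Of 37 transcripts of the second stretch, 19 were higher in the heavy fractions, against 48.9% over all, with a median of 0.21, which turned to −0.03 without the second heavy library and to −0.02 without the first light library.

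The same lean was seen over the whole table, again with the RPS25 ratio of the same 4 libraries, so it is not separate support. When the 7704 transcripts were divided into 10 equal parts by RPS25 ratio, the 771 with the highest ratios had a median heavy minus light difference of −0.32, and 32.3% of them were higher in the heavy fractions. In parts 3 and 4, counted from the lowest ratio, the medians were 0.14 and 0.14, with 58.4% and 57.6% higher in the heavy fractions, whereas the lowest part stood at 0.04 and 51.2%. Level runs along with this, as the top part had a median of 15.3 RPKM and the third part 39.7 RPKM. Among transcripts at or above the median level, the top part still stood at −0.25, with 36.5% higher in the heavy fractions, against 0.46 and 71.9% in the third. Among those below the median level the medians of the 10 parts lay between −0.33 and −0.09, at −0.12 in the lowest part, −0.20 in the third and −0.33 in the top part. Over all 7704 transcripts the RPS25 ratio and the heavy minus light difference had r = −0.11 (Spearman rho −0.16), given as a description across transcripts that share the same libraries.

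**Figure D5:**
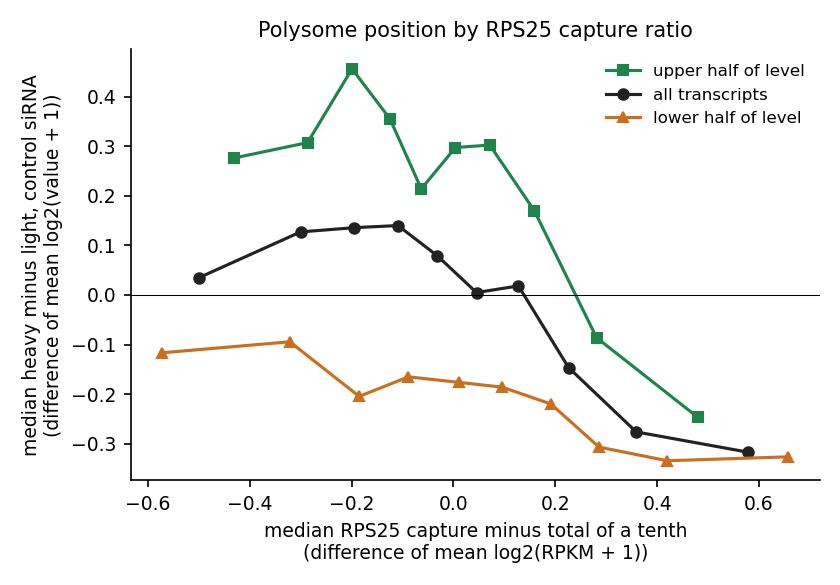
Median heavy minus light difference of mean log2(value + 1) in control siRNA cells (y axis) over 10 equal parts of transcripts ordered by RPS25 ratio (x axis, median of each part). Lines show transcripts at or above the median level, all transcripts, and those below it. The part with the highest RPS25 ratios stands lowest for all transcripts (−0.32) and for those at or above the median level (−0.25).

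For lists set by the test statistic instead of row order, the picture was alike. These lists are drawn from the same 4 libraries as the row order, so the likeness is not separate support. Which transcripts have RPL10A values limits these lists as it does the stretches. The backgrounds over all transcripts were again not matched for level. Of the 200 transcripts with the highest RPS25 moderated statistic, 162 had RPL10A values, 136 of them above 0 (49.0% over all), with a median of 0.41. In the polysome fractions 154 had values and 108 of these were higher in the light fractions (51.1% over all), with a median of −0.37. Of the 200 with the lowest statistic, 164 of 168 had an RPL10A ratio below 0 (50.9% over all), with a median of −0.51, and 85 of 152 were higher in the heavy fractions (48.9% over all), with a median of 0.20. In the RPL22 capture the medians of these lists were −0.07 and −0.04.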

How the data were processed

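The authors deposited 1 table per library. Per the file headers, Ribo-Seq values are RPKM per transcript, rounded to 1 decimal. The RNA-seq values are headed RPM but their sums differed between libraries, so the deposited columns were treated as a scaled signal. Per the submitters' processing notes, the tools were cutadapt and Bowtie2, joined by STAR for RPL22 and for RNA-seq, with build mm10 and no versions. The sources used here do not give the counting, annotation or filters. No transcript lengths were at hand, whole reads were not recovered and no count test was run.

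Groups follow sample titles. limma 3.58.1 in R 4.3.3 was fitted to log2(RPKM + 1) with a variance trend, over the 4 Rps25-3xFLAG libraries and all 8779 transcripts. This fit gives each transcript 1 spread, shared by captures and totals. The log2 difference between replicates had an SD across transcripts of 0.455 in the captures and 0.221 in the totals. Tests were two-sided, with Benjamini-Hochberg adjustment over the table and calls at 0.05. Differences between captures were interaction contrasts in all 12 Ribo-Seq libraries. The script was tested on simulated data. Named transcripts had at least the median level and groups that did not overlap, called ones first by size of ratio, then by p, 2 per direction, since no gene names were paired. The members and lists were chosen with earlier results of these data known, and the stretches of row order after the values were seen. Alternatives covered pseudocounts, a level filter of 10 RPKM, the trend, scaling, the replicate block and single libraries left out.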

Additional observations from a re-analysis of the deposited data

Results flagged for a closer look

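A test of the difference between lines marked 5 transcripts whose RPS25 capture ratio differed from the RPL10A capture ratio, 4 higher and 1 lower (limma interaction, 12 libraries). It covered the 7605 transcripts with values in all 3 lines. The same kind of test marked 2 transcripts whose RPS25 ratio differed from the RPL22 ratio, both higher.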

How the results depend on the processing

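Of the 4 calls in the RPS25 capture (3 higher, 1 lower), counts within 1.5 times of this were found with pseudocounts of 0.1 and 5, a minimum mean of 10 RPKM and both scalings. Limma called 0 without the variance trend (970 higher and 694 lower at an unadjusted p below 0.05) and 0 against a 1.5-fold change (55 and 30). The fit of 12 libraries called 199 (120 higher, 79 lower), and that of 4 libraries over the common transcripts 2, of which 1 was higher. Leaving out 1 library gave 0 to 1 calls, 0 higher and 0 to 1 lower, with 288 to 1643 higher and 180 to 1470 lower at an unadjusted p below 0.05. The replicate block called 6, of which 4 were higher and 2 lower. Same-numbered libraries did not deviate together (r = 0.008 across transcripts), and the numbers were not taken to pair samples. With 2 libraries a group this value cannot show that captures and totals were unpaired.

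For RPS25 against RPL10A, with 5 calls (4 higher, 1 lower), limma called 3 without the trend (2 higher), 2 with medians aligned (1 higher) and 0 with the replicate block (0 higher, 0 lower; 472 and 336 at an unadjusted p below 0.05). Leaving out 1 library gave 0 to 32 calls, 0 to 21 higher and 0 to 11 lower, the most without the first RPS25 capture library and 0 without the second Rps25 total. For RPS25 against RPL22, with 2 calls, both higher, limma called 5 with a pseudocount of 5 and 5 with the level filter (4 higher and 1 lower each), 1 without the trend, 88 with totals scaled (76 higher, 12 lower) and 0 with the replicate block (696 higher and 528 lower at an unadjusted p below 0.05). Leaving out 1 library gave 0 to 156 calls, 0 to 85 higher and 0 to 71 lower, the most without the second RPS25 capture library. The causes were not tested.

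The median of the opening stretch ran from 0.36 to 0.58 in the RPL10A capture and from −0.68 to −0.38 in heavy minus light, and that of the second stretch from −0.75 to −0.52 and from −0.03 to 0.27, over the pseudocounts, scalings and libraries left out there, which were added after seeing the data. Without counts, what depth limits is unknown.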
